A study of Mus with 4 samples.

Results

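The C/D box small nucleolar RNAs (snoRNAs) were examined in the cochlea of mice with and without RESTART v3. All genes whose symbol begins with Snord and a number were taken from the expression table, which gave 84 of 21230 listed genes. The table holds 4 RNA-seq libraries of whole cochlear tissue, 2 from untreated mice and 2 from mice treated with RESTARTv3. Otof c.1315 C > T (p.R439X) was present in all 4 libraries, so the untreated mice have the early stop codon of otoferlin too. RESTART v3 combines a guide snoRNA of the H/ACA type, a DKC1 isoform and a near-cognate tRNA, and was delivered into the inner ear by an AAVie vector in mice of 4 weeks of age, per the methods of the study. The age at collection is not given in the sources used here for these libraries. No vector-injected control was among them, so the effects of RESTART v3, of the vector and of the injection cannot be told apart. The labels do not say which mouse gave which library, and the p-values measure only the spread between these libraries.

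Box C/D snoRNAs are short nuclear RNAs named after a pair of conserved sequence boxes. Most of them guide the methyltransferase fibrillarin to ribosomal RNA or small nuclear RNA, where it methylates the ribose, and a few help to cut the ribosomal RNA precursor instead. In mammals most are cut out of the introns of host genes, many of which encode ribosomal proteins. They assemble with fibrillarin, NOP56, NOP58 and SNU13. Dyskerin, the product of Dkc1 and the enzyme that RESTART v3 uses, binds the other large class, the H/ACA RNAs, and not the C/D RNAs. The question was how a guide RNA class that does not bind this enzyme stood in treated and untreated cochlea.

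Values are RPKM, a read count divided by the length of the gene and by the reads of the library. The study's methods fragmented the RNA and dropped short reads, and RPKM does not correct for unequal recovery of short and long members. Levels of snoRNAs of different length are compared here with that limit, and its size was not tested. For genes with introns the length is the span with introns, so their levels lie lower beside those of snoRNAs. A filter on RPKM therefore drops genes of long span that have many reads, such as Parn with 461 reads and 0.0893 RPKM in untreated library A. The libraries differ in makeup. The listed genes hold 52.9% and 60.4% of all reads in untreated libraries A and B, 57.9% in RESTARTv3 library 1 and 28.6% in RESTARTv3 library 2. The library totals are 39650172, 56739609, 71144247 and 61040077 reads in the same order. A and B are letters without order, since both untreated columns carry the same name. Hair cell markers were all listed (6 of 6), with a summed level of 3.95 and 2.10 RPKM in the untreated libraries and 1.71 and 0.655 RPKM in the RESTARTv3 libraries. These levels are low, and only 1 of the 6 reached a mean of 1 RPKM. In 2 of the 6 both RESTARTv3 values lay below both untreated values, beside 25.2% of all listed genes. The summed level of 3 bone markers was 680 RPKM in untreated library A and between 98.7 and 189 RPKM in the other libraries. By the fitted change between groups, 2 of these markers were lower in the RESTARTv3 libraries and 1 was higher. The summed level of 2 erythroid markers was instead lowest in untreated library A, at 80.4 RPKM. It was 324 RPKM in untreated B and 372 and 182 RPKM in the RESTARTv3 libraries, with 1 marker lower and 1 higher by fitted change. In bulk tissue, fewer cells of a type and less RNA per cell cannot be told apart.

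The members spanned a wide range of levels. Of the 84 members, 8 had a mean above 1000 RPKM, 34 lay between 100 and 1000 RPKM, 32 between 10 and 100 RPKM, and 10 below 10 RPKM. Snord21, which lies within the span of the ribosomal protein gene Rpl5, had the highest mean RPKM. Its values were 5507 and 2464 RPKM in the untreated libraries and 1605 and 1467 RPKM in the RESTARTv3 libraries. Both treated values lay below both untreated values. The next members were Snord22 from the long non-coding host Snhg1, Snord104 and Snord17. The groups overlapped for Snord22 and not for Snord104 and Snord17. Snord55, Snord111, Snord82, Snord34, Snord49a and Snord3a completed the 10 highest. Untreated library A gave a level of 3591 RPKM for Snord17, whereas the other libraries gave 812, 524 and 511 RPKM. The top 10 by level thus differed in order between libraries, and the plot of all members by library shows this spread.

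**Figure D1:**
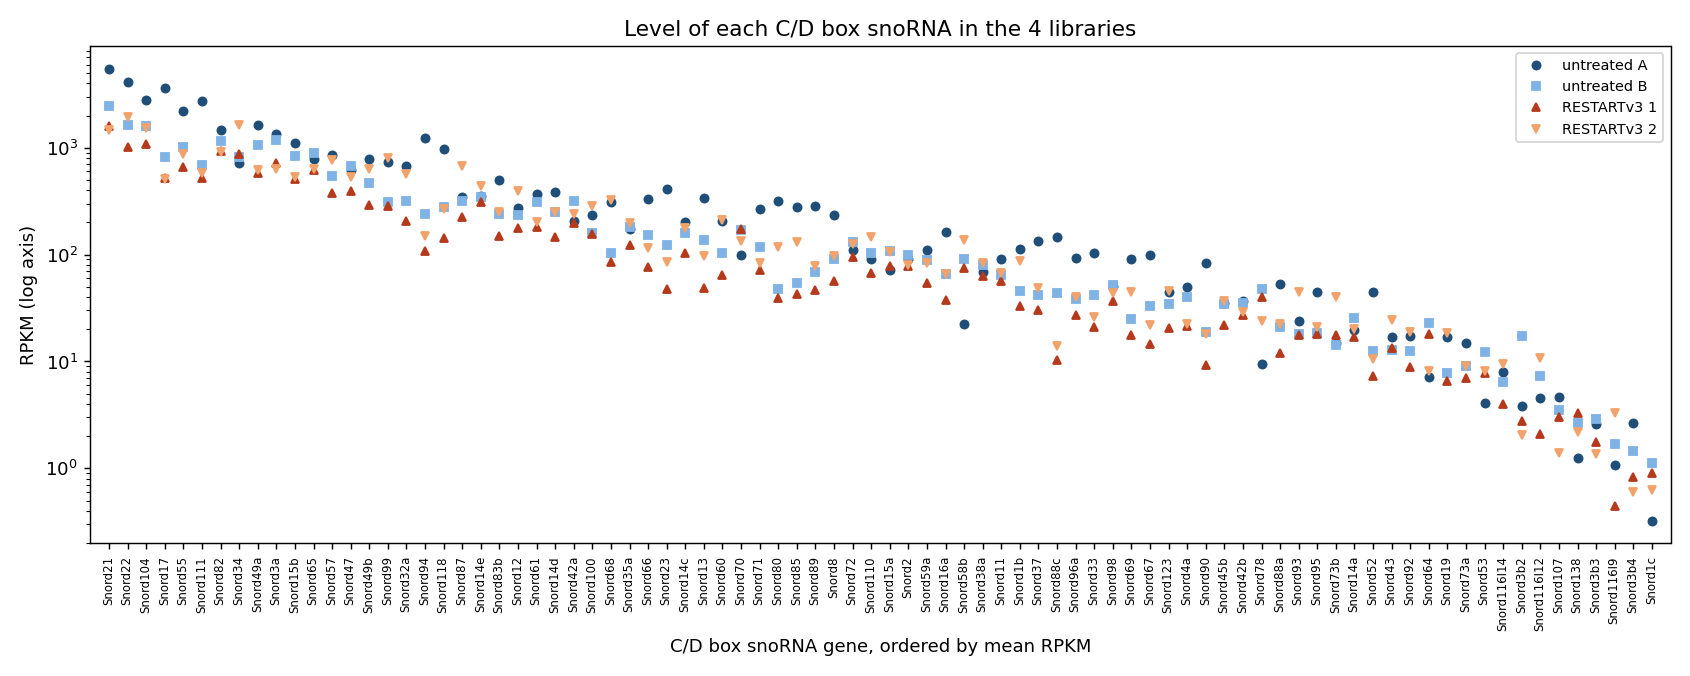
RPKM of the 84 C/D box snoRNAs (log axis) in the 4 libraries, ordered by mean RPKM. Each point is 1 library; untreated library A was the highest for 46 members and RESTARTv3 library 1 the lowest for 65.

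The order of the members was similar in all libraries. Across the 84 members, Pearson's r of log2 RPKM between libraries ranged from 0.915 for untreated A with RESTARTv3 1 to 0.983 for untreated B with RESTARTv3 1. This is a description across genes that share length and library, and genes are not replicates. The libraries that were most alike came from different groups. The 10 members with the most reads in each library held 73.0%, 66.1%, 66.0% and 58.4% of all C/D snoRNA reads in the order untreated A, untreated B, RESTARTv3 1 and RESTARTv3 2.

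The class as a whole was then compared. C/D snoRNAs took 0.813% of listed reads in untreated library A (95% Wilson interval 0.809 to 0.816), 0.345% in untreated B (0.344 to 0.347), 0.238% in RESTARTv3 1 (0.236 to 0.239) and 0.663% in RESTARTv3 2 (0.659 to 0.666). These intervals cover counting error only, and the libraries of a group differed far more. The groups overlapped, and the log2 difference of RESTARTv3 minus untreated was -0.42 (exact permutation test, 2-sided, p = 0.667, n = 2 per group). Its sign turned to 0.20 without untreated library A and to 0.32 without RESTARTv3 library 1. Counted against the library total, the class had 4297 and 2087 reads per 1000000 in the untreated libraries and 1375 and 1897 in the RESTARTv3 libraries. On that scale the groups did not overlap, with a log2 difference of -0.89 (exact permutation test, 2-sided, p = 0.33, the smallest that 2 against 2 libraries can give). The difference thus depended on which reads the class was counted against.

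The set called H/ACA RNAs in this report was taken by symbol, Snora or Scarna with a number. It thus holds small Cajal body RNAs too, and the box type of its members was not checked. Set beside this set, the C/D snoRNAs had 1.05 and 1.29 reads per H/ACA read in the untreated libraries and 1.23 and 1.90 in the RESTARTv3 libraries. The groups overlapped on this ratio (log2 difference 0.39, exact permutation test, 2-sided, p = 0.667, n = 2 per group). This ratio is free of any library scale. The C/D members have a median length of 71.5 bases, and the 42 listed H/ACA RNAs are longer.

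Differences between libraries of the same group were as large as those between groups. RESTARTv3 library 2 lay above library 1 in 71 of 84 members, with a median fold of 1.49. Among all 5076 tested genes, library 2 lay above library 1 in 13.7%, with a median fold of 0.481. The C/D snoRNAs thus ran against most other genes within the treated pair. H/ACA RNAs lay between, with library 2 higher in 25 of 42 and a median fold of 1.07. In the untreated pair, library A lay above B in 61 of 84 members with a median fold of 1.40, beside 52.4% of tested genes with a median fold of 1.06. The H/ACA RNAs had a median fold of 2.32 there. RESTARTv3 library 2 is the library with the smallest share of reads in listed genes (28.6%), and the part of this share in the result was not tested.

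For single members the RESTARTv3 and untreated libraries were compared with limma on log2(RPKM + 0.5) over 5076 genes with a mean of at least 1 RPKM. Of the 84 members 83 were tested, and Snord1c was below the filter at 0.323, 1.13, 0.901 and 0.630 RPKM. No member was called at a Benjamini-Hochberg adjusted p of 0.05 (0 of 83, beside 0.0% of all tested genes), and the smallest adjusted p was 0.998 by limma. By limma voom on reads, 0 of 81 members were called as well, with 1 at an unadjusted p under 0.05 (lower, beside 0.747% of the genes tested by voom). Without untreated library B, 2 members were called by limma after median-of-ratios scaling and 13 by voom, beside 48.2% and 47.7% of all genes tested, a fit whose spread comes from the RESTARTv3 pair alone. In the main test 3 members had an unadjusted p under 0.05, all lower in the RESTARTv3 libraries, beside 1.3% of all tested genes in that direction. In the other direction 0 members and 0.118% of all tested genes did so.

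These 3 members were Snord88c, Snord94 and Snord3b2. Snord88c had 147 and 43.6 RPKM in the untreated libraries and 10.4 and 13.8 RPKM in the RESTARTv3 libraries. Untreated library A was the highest, and the groups did not overlap. Its log2 change was -2.69 ± 0.92 (standard error, unadjusted p = 0.00344, adjusted p = 0.998 by limma), the lowest of all members, and it rested on 490, 208, 62 and 71 reads. Without untreated library A the log2 change of Snord88c was -1.82 and its unadjusted p by limma was 0.190. Snord94, known in human as a guide for U6 small nuclear RNA, had 1237 and 240 RPKM in the untreated libraries and 108.2 and 149 RPKM in the RESTARTv3 libraries. The groups did not overlap, although the untreated libraries were farther apart than untreated library B and the treated ones. Its log2 change was -2.09 ± 0.94 (unadjusted p = 0.0257, adjusted p = 0.998 by limma), and -0.91 without untreated library A. Snord3b2, a copy of the U3 RNA gene, had 3.87 and 17.2 RPKM without treatment and 2.75 and 2.06 RPKM with it. Here untreated library B was the high one. The log2 change was -1.61 ± 0.81 (unadjusted p = 0.0469, adjusted p = 0.998 by limma), and -0.60 without library B (unadjusted p = 0.657 by limma). Copies of U3 are nearly identical, so the split of reads among them is uncertain.

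The next 7 members by unadjusted p were also lower in the RESTARTv3 libraries. They were Snord23 (log2 change -1.80), Snord17 (-1.72), Snord67 (-1.66), Snord90 (-1.58), Snord13 (-1.65), Snord33 (-1.48) and Snord52 (-1.38). Untreated library A was the highest library for each of them, and without it the log2 changes were -0.94, -0.65, -0.88, -0.53, -0.999, -0.83 and -0.48 in the same order. In Snord23, for example, the RPKM was 411 in untreated library A, 123 in B, and 48.0 and 85.9 in the RESTARTv3 libraries. At the other end stood Snord58b, which lies in the span of Rpl17, with a log2 change of 1.16. Its RPKM was 22.5 and 91.6 in the untreated libraries and 75.4 and 138 in the RESTARTv3 libraries. Here untreated library A was the low one, the groups overlapped, and without library A the log2 change was 0.15. The plot of fitted changes places all members along this range.

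**Figure D2:**
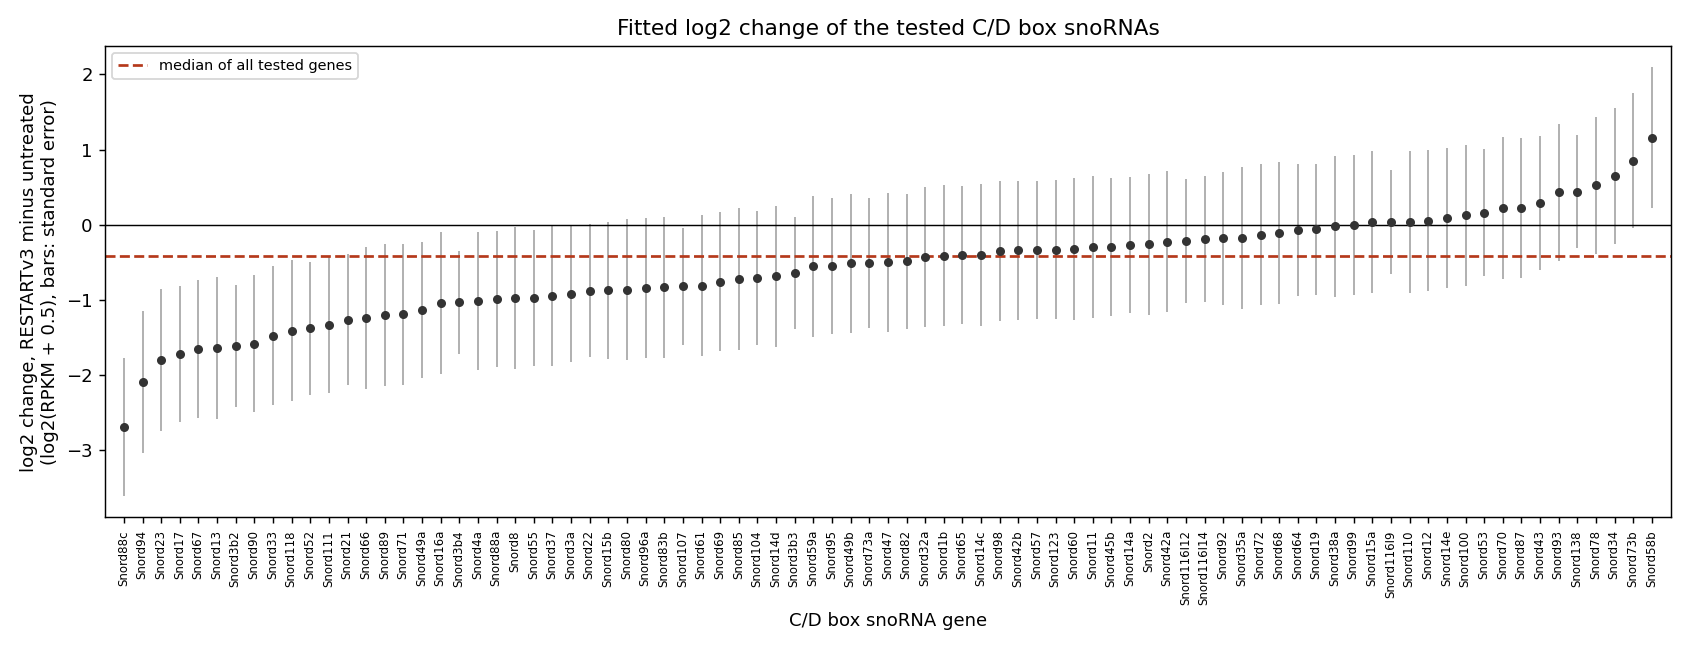
Log2 change (RESTARTv3 minus untreated, on log2(RPKM + 0.5)) of the 83 tested C/D box snoRNAs with its standard error. The dashed line is the median of all tested genes (-0.41); 45 members lie below it and 38 above.

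Over the 83 tested members the median log2 change was -0.50, beside -0.41 over all 5076 tested genes and -1.18 over the 42 H/ACA RNAs. A negative change was found for 67 members and a positive one for 16, beside 3865 and 1211 of the 5076 tested genes. Of the members, 45 lay below the median of all tested genes and 38 above it. After median-of-ratios scaling on genes that are not small RNAs, the median was -0.22 for the members and -0.20 for all tested genes. The gap between these medians depended on the genes and libraries used. Without the filter on low values the medians were -0.50 for the members and -0.03 for all genes, and by voom they were -0.25 and -0.01. Without RESTARTv3 library 2 they were -0.88 and -0.10, and without RESTARTv3 library 1 they were -0.25 and -0.75, so the members lay below the other genes in the first case and above them in the second.

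The RESTARTv3 libraries both lay below both untreated libraries in 32 of the 84 members (38.1%), beside 25.2% of all listed genes and 34.9% of tested genes. They both lay above in 2 members (2.38%), Snord34 and Snord73b, beside 2.24% of listed genes and 0.768% of tested genes. In the other 50 members the groups overlapped. These counts moved with the scaling. After median-of-ratios scaling 4 members were lower (4.76%, beside 20.7% of listed genes), namely Snord88c, Snord3b2, Snord3b4 and Snord107, and 2 were higher (2.38%, beside 17.7%), Snord70 and Snord138. Scaled to the C/D snoRNAs themselves, 12 were lower and 17 higher (beside 2.56% and 3.96% of listed genes), a scale that draws the members together by construction. Snord88c and Snord3b4 were lower on all 3 scales and 0 members were higher on all 3. Snord3b4 rested on 23, 18, 13 and 8 reads. In what follows, overlap is given for the deposited values unless another scale is named.

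The members were then read by role. Among the RNAs that help to process the ribosomal RNA precursor, 10 were tested, with a median log2 change of -0.78 and a range of -1.61 to 0.08. In 5 of them the RESTARTv3 libraries lay below both untreated libraries, beside 34.9% of tested genes, and 1 (Snord3b2) had an unadjusted p under 0.05 by limma, beside 1.3% of tested genes in that direction. Snord3a, the U3 RNA that takes part in the first cuts of the precursor, had 1357 and 1182 RPKM in the untreated libraries and 714 and 627 RPKM in the RESTARTv3 libraries. The means were 1270 ± 124 and 670 ± 61.0 RPKM (SD, n = 2 each). After median-of-ratios scaling its values were 1483 and 888 in the untreated libraries and 545 and 1003 in the RESTARTv3 libraries, so the replicates lay farther apart and the groups overlapped. Snord118, the U8 RNA needed for the large subunit RNAs (shown in Xenopus), had 975 and 277 RPKM in the untreated libraries and 144 and 266 RPKM in the RESTARTv3 libraries. Its groups did not overlap, but untreated library B lay within a few percent of RESTARTv3 library 2. Snord22, the U22 RNA needed for 18S RNA in Xenopus, had 4123, 1618, 1013 and 1951 RPKM, and its groups overlapped.

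For the 4 listed copies of Snord14 (U14, needed for 18S RNA in yeast) the groups overlapped. Snord14d had 387 and 249 RPKM in the untreated libraries and 146 and 253 RPKM in the RESTARTv3 libraries. Snord14e had 351 and 348 RPKM in the untreated libraries and 311 and 442 RPKM in the RESTARTv3 libraries, with the highest and the lowest value both in treated libraries. Snord14c, Snord14d and Snord14e lie in the span of Hspa8, a heat shock protein gene, and Snord14a in that of Rps13. The U3 copies Snord3b2, Snord3b3 and Snord3b4 had group means between 0.720 and 10.5 RPKM, far under Snord3a. Reads of near-identical copies cannot be assigned with certainty.

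Of the guides for U6 small nuclear RNA, Snord8, Snord67 and Snord94 were listed. All 3 had negative changes (median -1.66), as did 3865 of the 5076 tested genes. The groups did not overlap for Snord67 and Snord94, beside 34.9% of tested genes lower without overlap. Untreated library A was the highest library for all 3. Snord67 had 98.6 and 33.3 RPKM in the untreated libraries and 14.6 and 21.7 RPKM in the RESTARTv3 libraries. Snord8 had 233, 91.0, 56.0 and 97.2 RPKM, so untreated library B lay between the treated ones. Snord13, which in human guides an acetylation of 18S RNA by NAT10 and no methylation, had 336 and 137 RPKM in the untreated libraries and 48.2 and 96.3 RPKM in the RESTARTv3 libraries. Its groups did not overlap (means 236 ± 141 and 72.2 ± 34.01 RPKM, SD, n = 2 each). Snord13 and Snord118 are transcribed from their own promoters, and with Snord89 they are the 3 matched members that lie in no host span of the reference.

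Members from the long non-coding host Gas5 differed among themselves. Snord47 had 622 and 677 RPKM in the untreated libraries and 393 and 533 RPKM in the RESTARTv3 libraries, without overlap. Snord80 had 319, 47.9, 38.9 and 118.1 RPKM, and Snord78 had 9.55, 47.3, 40.2 and 23.8 RPKM. In both of these the groups overlapped, with untreated library A at the top for Snord80 and at the bottom for Snord78. The imprinted Snrpn-Snhg14 region, whose Snord116 RNAs are lost in Prader-Willi syndrome, was represented by Snord64, Snord107 and 3 Snord116 copies. All 5 were low, with group means between 1.38 and 15.1 RPKM, and their median log2 change was -0.19. Snord116 copies share sequence, and 14 further copies of the reference were not analysed here. Members of the imprinted Meg3-Rian region were not analysed here.

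Rpl13a, a ribosomal protein gene, holds 4 listed members, Snord32a, Snord33, Snord34 and Snord35a, which have been tied to the response to lipid stress in mouse cells. Snord34 had 721 and 813 RPKM in the untreated libraries and 873 and 1640 RPKM in the RESTARTv3 libraries. Both treated values lay above both untreated values, and the log2 change was 0.64 ± 0.91 (adjusted p = 0.998 by limma), whereas the groups overlapped after median-of-ratios scaling. Without RESTARTv3 library 2 the log2 change was 0.19. Snord33 had 104 and 42.1 RPKM in the untreated libraries and 20.9 and 26.2 RPKM in the RESTARTv3 libraries, the opposite order, again without overlap on the deposited scale. Snord32a had 669, 318, 207 and 571 RPKM and Snord35a had 172, 182, 124 and 198 RPKM, and both overlapped between the groups. Rpl13a itself had 72.2, 72.3, 57.9 and 31.96 RPKM. The plot of the Rpl13a members shows the opposite order of Snord33 and Snord34.

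**Figure D3:**
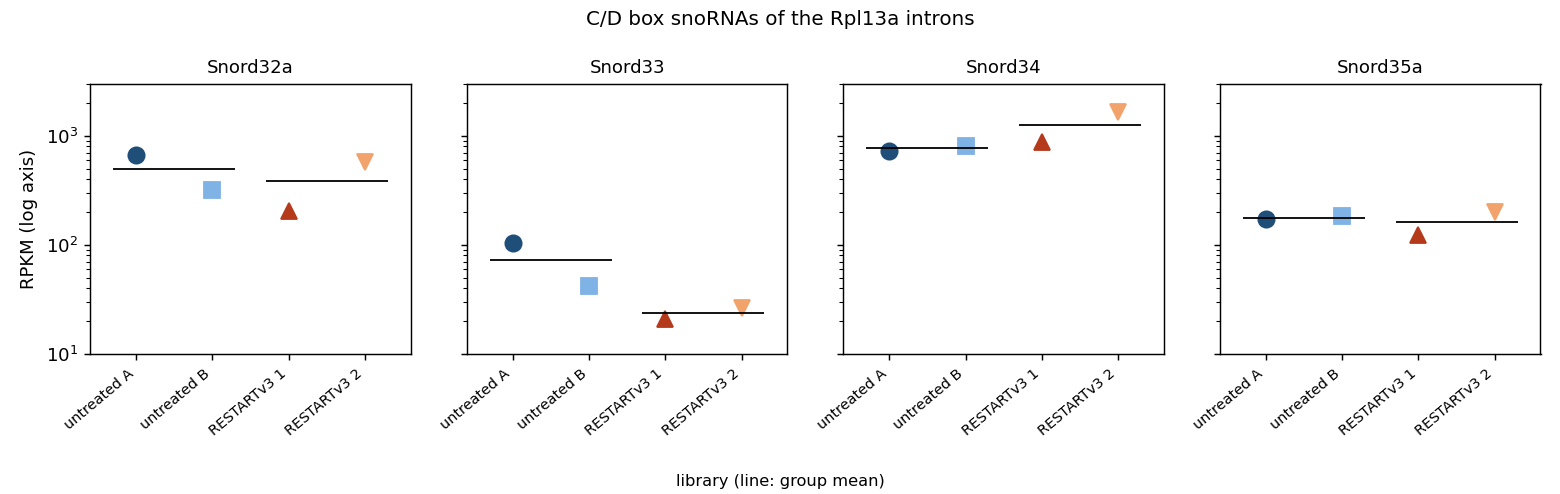
RPKM (log axis) of the 4 C/D box snoRNAs in the Rpl13a span by library, with the mean of each group as a line. Snord34 is higher in both RESTARTv3 libraries (873 and 1640) than in both untreated libraries (721 and 813), and Snord33 is lower (20.9 and 26.2 against 104 and 42.1).

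Ratios of members within a library do not depend on how the library is scaled. There were 6.96 and 19.3 units of Snord34 per unit of Snord33 in the untreated libraries and 41.8 and 62.7 in the RESTARTv3 libraries. The ratio was 4.41-fold higher in the RESTARTv3 libraries, and the groups did not overlap (exact permutation test, 2-sided, p = 0.33, the smallest possible, n = 2 per group). Even so, the untreated libraries differed from each other, and B was closer to the treated ones than A. Of all 32 pairs of members within 1 of 16 host spans, 19 had ratios without overlap between the groups (59.4%, in either direction), beside 40.8% of all 3486 pairs of members. Pairs share members and are not independent.

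Other hosts held such pairs too, although the Snord88, Snord73 and Snord42 copies are alike and may share reads. Snord88a per unit of Snord88c, both in the span of 2410002F23Rik, was 0.357 and 0.477 in the untreated libraries and 1.15 and 1.63 in the RESTARTv3 libraries, 3.31-fold higher (exact permutation test, 2-sided, p = 0.33, n = 2 per group). Snord73b per unit of Snord73a, in the span of Rps3a1, was 1.01 and 1.59 without treatment and 2.54 and 4.41 with it. Snord73b itself had 14.9 and 14.4 RPKM without treatment and 17.8 and 40.4 RPKM with it, a log2 change of 0.85 that was 0.27 without RESTARTv3 library 2. The 3 members in Rpl23a showed smaller shifts, with Snord42a per unit of Snord4a at 4.14 and 7.78 without treatment and 9.14 and 10.8 with it. In 2410006H16Rik the member with the highest mean RPKM was Snord49a, with 1647 and 1051 RPKM without treatment and 579 and 617 RPKM with it. Snord65 had 781 and 901 RPKM without treatment and 625 and 639 RPKM with it. Both members were lower in the RESTARTv3 libraries without overlap. Snord65 per unit of Snord49a did not overlap either, at 0.474 and 0.857 without treatment and 1.08 and 1.04 with it. In 4 Snhg14 members all 6 ratios overlapped between the groups.

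Length differed along with these changes. In 28 of the 32 pairs the members had different lengths. By the arithmetic mean of the ratios, the shorter one was relatively higher in the RESTARTv3 libraries in 18 pairs. That count leaves out Snord116l12 over Snord64 and Snord116l9 over Snord64, where the log2 changes of the ratio (-0.21 and -0.07) favour the shorter Snord64. Across all members the length ran from 28 to 221 bases. The median log2 change was -0.11 for the 19 members under 60 bases, -0.51 for the 44 of 60 to 89 bases and -1.03 for the 21 of 90 bases or more. Across the 83 tested members Spearman's rho of length and log2 change was -0.42 and Pearson's r -0.41, as a description across genes that share the 4 libraries. After median-of-ratios scaling the 3 medians were 0.18, -0.23 and -0.76, so the order of the classes was the same and the sign of the shortest class turned. Within the untreated pair, library A over B had median folds of 1.05, 1.52 and 1.83 in the same classes. Over single members, Spearman's rho of length and this log2 ratio was only 0.17 and Pearson's r 0.10. Within the treated pair, library 2 over 1 had median folds of 1.61, 1.51 and 1.42. For the log2 ratio of library 1 over 2, rho with length was 0.044 and r was 0.136. The part of length in the differences between groups was not tested. Snord33 has 82 bases and Snord34 has 66, Snord94 has 137, and Snord88c has 84.

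**Figure D4:**
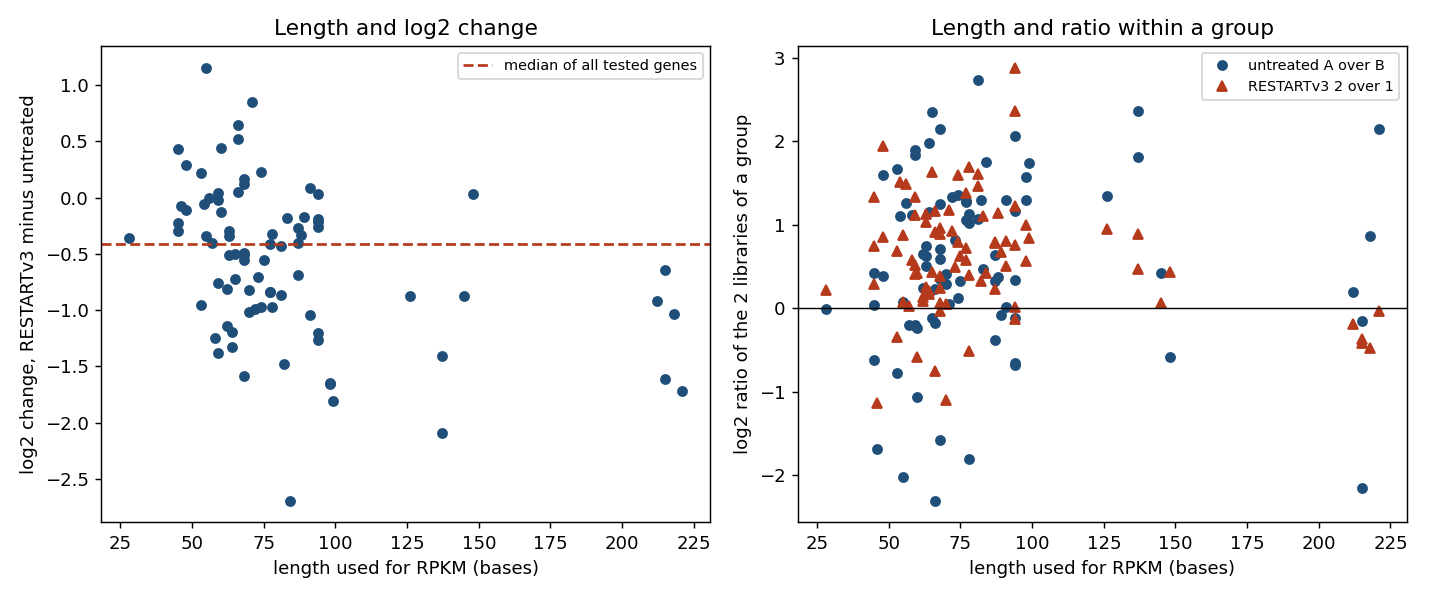
Length used for RPKM (bases) of each C/D box snoRNA against its log2 change (left) and against the log2 ratio of the libraries of a group (right). The longest members have the lower changes (median -1.03 at 90 bases or more, -0.11 under 60 bases).

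Members were also set beside their hosts. Of the 75 members matched to the reference, 72 lie in a host span, 65 of these in 46 listed hosts and 53 in 36 hosts that passed the filter. The median log2 change of these hosts was -0.02, and 32 of 53 members had a lower change than their host. Across the 53 members, the correlation of member and host change was low (Pearson r = 0.17, Spearman rho = 0.15, a description, with several members sharing a host). The median level of a member per level of its host was 22.9 and 9.29 in the untreated libraries and 6.69 and 18.9 in the RESTARTv3 libraries. These groups overlapped, with 1 high and 1 low library in each. Snord47, for example, had 200 and 46.4 times the level of Gas5 without treatment and 31.3 and 73.9 times with it. Host levels are per base of the gene span with introns, which lowers them. Whether reads of unspliced host introns were counted for a nested snoRNA cannot be told apart from mature snoRNA reads here.

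Genes for C/D core proteins, their assembly, the U3 particle and the trimming or decay of small RNA ends gave no calls. Of the 3 listed core protein genes 1 was tested (Nop56), and Nop58 was not analysed here. Of 24 listed genes 8 were tested, 0 were called by limma at an adjusted p of 0.05 and 0 had an unadjusted p under 0.05. The median log2 change of these 8 was -0.03, with a range of -0.71 (Imp3, a U3 particle protein) to 0.08 (Exosc3, an exosome subunit). The other genes fell under the filter on RPKM, which is per base of the gene span, although several had many reads. By voom on reads all 24 were tested, 0 were called and 0 had an unadjusted p under 0.05. Their log2 changes by voom ran from -0.77 (Rrp9) to 0.92 (Mtrex). Fbl, which encodes fibrillarin, had 0.257 and 0.340 RPKM without treatment, 0.379 and 0.167 RPKM with it, and did not pass the filter. Nop56, which encodes a core protein and itself hosts Snord57 and Snord110, had 1.42 and 2.55 RPKM without treatment and 2.88 and 1.34 RPKM with it. Snu13 had 0.464, 1.28, 1.07 and 0.448 RPKM. In all 3 the groups overlapped. Among the assembly factors, Nolc1, a chaperone of snoRNA particles, had 2.16, 3.50, 3.73 and 1.77 RPKM, likewise with overlap. RESTARTv3 library 2 was low for these genes, whereas it was above library 1 for most C/D snoRNAs.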

How the data were processed

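RNA was sequenced from rRNA-depleted total cochlear RNA with a stranded low-input kit, although the labels call it polyA RNA. Per the study's methods and the submitters' processing notes, the authors trimmed reads with cutadapt 4.2, removed duplicates, used UMI-tools 1.0.0, mapped read 2 by STAR 2.7.10b on GRCm39, applied SAMtools 1.14 filters, counted genes with HTSeq 1.14 and removed genes with poor agreement of replicates. The stated limit was 2-fold, but log2 ratios of replicates in the table run from -3.22 to 3.52. The authors deposited RPKM per gene and library, and no value is 0. Removed genes were not analysed here. With a fixed library total, RPKM came out as whole reads at the annotated length for 11591 of 21230 genes (within 0.001 of a read). For the other genes a length was fitted so that reads are whole, which is no check of their read numbers. Their true reads may be whole multiples of those used. The shares of listed reads and the voom fits rest on these read numbers. For 73 members the annotated length was used, for 11 the smallest length that gives whole reads, so their true read numbers may be whole multiples of those used. Names, lengths and host spans came from RefSeq on GRCm38.p6, another build without strand here, so no coordinates are given. It holds 94 Snord symbols, of which 75 were listed.

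limma 3.58.1 in R 4.3.3 (lmFit and eBayes with trend, no covariates, 2-sided, Benjamini-Hochberg at 0.05) was run on log2(RPKM + 0.5) for genes with a mean of at least 1 RPKM. This scale understates changes of low genes. The fit was also run on simulated data with the spread of the RESTARTv3 pair alone. That outcome is not given here and is no check at the spread of the untreated pair. Alternatives changed the pseudocount (0.1, 1), the filter (none, 5 RPKM), the scaling, the variance prior, the model (voom on recovered reads, mean of at least 10), the agreement of replicates (2-fold) and the reads of a member (20), and left out each library. Scaling to the members, and scaled or voom fits without a library, were added after seeing the data. Ratios within hosts and length classes were also chosen after values were seen. Named were the 10 members with the smallest p, the 10 highest in level, the role lists, members of shared hosts, the extremes of change and the protein genes; Snord73b and the members that differed between scales or within a host were named after their values were seen. The members and lists were chosen with earlier results of these data known.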

Additional observations from a re-analysis of the deposited data

How the results depend on the processing

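No paired analysis was possible because the untreated columns carry no replicate numbers that tell them apart. The count of members called was 0 in 21 of 23 alternatives and between 0 and 13 without 1 library. It was 2 with median-of-ratios scaling and 13 with voom (limma), both without untreated library B, where 48.2% and 47.7% of all tested genes were called and the spread comes from the RESTARTv3 pair alone. Protein genes called were 4 and 11 in the same fits. The median log2 change of the members (-0.50) was 0.13 after quantile normalization and 0.13 when scaled to the C/D snoRNAs, and ran from -1.11 to 0.56 when 1 library was left out. With median-of-ratios scaling it was 0.25 without untreated A, 0.56 without RESTARTv3 1 and -1.10 without RESTARTv3 2. With voom it was 0.10, 0.55 and -1.11 in the same order, and -0.97 without untreated B. Members lower without overlap numbered 4 after median-of-ratios scaling, 12 when scaled to the C/D snoRNAs, and 32 to 73 without 1 library. Members higher numbered 17 when scaled to the C/D snoRNAs and 3 to 22 without 1 library. Leaving out 1 library leaves 1 library in its group, so the groups separate more easily in either direction for any gene. The share over all listed genes is not given for these settings. The counts without 1 library therefore do not show whether the members differ from other genes. The summed level ran from -1.16 to 0.32 without 1 library, and turned sign at 0.20 without untreated A and 0.32 without RESTARTv3 1. Without untreated A and with median-of-ratios scaling, Snord90 was 0.022 and Snord52 was 0.057. Without RESTARTv3 2, Snord34 was -0.057 with that scaling and -0.052 with voom. The cause of these shifts was not tested. Members with few reads (75 of 84 had at least 20 in every library) are measured less exactly.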

Other observations

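Other members were grouped by the kind of host after their values had been seen. For 5 long non-coding hosts of the small nucleolar RNA host type, besides Gas5 and Snhg1, 1 member each is given here. In each of these members RESTARTv3 library 1 was the lowest library and the groups overlapped. Neither is particular to these hosts, since library 1 was the lowest for 65 of all 84 members and the groups overlapped in 50. Snord1c, also in Snhg16, was lowest in untreated library A. Snord87 in Snhg6 had 348 and 318 RPKM in the untreated libraries and 224 and 677 RPKM in the RESTARTv3 libraries. Snord99 in Snhg12 had 743, 311, 287 and 802 RPKM in the same order, and Snord12 in Zfas1 had 276, 234, 177 and 395 RPKM. RESTARTv3 library 2 was the highest for these 3 members. Snord1b in Snhg16 had 111.7, 46.0, 33.2 and 86.6 RPKM, with untreated library A on top. Snord123 in Snhg18 had 44.4, 34.2, 20.8 and 45.8 RPKM.

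Several members lie in genes for nucleolar or translation proteins. Snord82, in the span of Ncl (nucleolin), had 1471 and 1153 RPKM in the untreated libraries and 939 and 917 RPKM in the RESTARTv3 libraries, without overlap. Snord2 in Eif4a2, a translation initiation factor gene, had 90.7 and 98.8 RPKM in the untreated libraries and 78.5 and 79.3 RPKM in the RESTARTv3 libraries, also without overlap. Both hold on the deposited scale, and after median-of-ratios scaling the groups overlapped for Snord82 and Snord2, with 99.0, 74.2, 59.9 and 126.8 for Snord2. The genes for the core proteins of the C/D particle host members too. In the span of Nop58, Snord70 had 99.9, 172, 172 and 135 RPKM and Snord11 had 91.3, 64.1, 56.9 and 67.9 RPKM. In Nop56, Snord57 had 847, 549, 376 and 770.5 RPKM and Snord110 had 90.6, 105, 67.9 and 147 RPKM. The groups overlapped for all 4 of these.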
